A study of Rattus norvegicus with 28 samples.

Results

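The expression of 9 macrophage marker genes was followed across rat muscles in which the vitamin D receptor (VDR) was overexpressed or targeted by knock-down. They comprised 6 general markers (Aif1, C1qb, C1qc, Cd14, Csf1r and Lyz2) and 3 markers of resident-type macrophages (Cd163, Mrc1 and F13a1), that is 9 of the 32883 genes in the count files. They were picked by symbol and found in the files through the Ensembl identifier that a supplementary file of the study pairs with each symbol. Such a pairing exists for 1998 genes, which are those ranked first by p-value in the study's own test of VDR overexpression. Every gene named below, the 9 markers included, was therefore already favoured for a difference between VDR-overexpressing and control legs, and counts in that comparison are descriptive for this reason. The same holds for the difference between arms and for the comparison of the control legs, which share muscles with it.

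RNA-Seq counts came from the tibialis anterior of both legs of 14 male Wistar rats, 8 weeks old when housing began and 7 to an arm, with 28 muscles in 4 groups of 7. In the first arm the right muscle received by electrotransfer, in which electric pulses drive injected DNA into muscle fibres, a plasmid carrying mouse VDR (VDR-OE), and the left muscle the same plasmid empty (VDR-OE control, labelled Sham VDR knock-in). In the second arm the right muscle received VDR shRNA (VDR-KD) and the left a scramble shRNA (VDR-KD control, labelled Sham VDR knock-out). Every muscle, controls included, was injected and pulsed, every rat received carprofen, an anti-inflammatory drug, and muscles of the VDR-OE arm were collected after 10 days. The labels name the plasmid backbone pCAGGS and the methods of the study pCMV6. The backbones carry promoters active in most cell types, and reads of the mouse transgene appear only where they map to rat Vdr. None of the muscles analysed here went without electrotransfer, and the arms used different rats, so that plasmid and shRNA cannot be told apart from any other difference between the sets of rats.

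Macrophages are the main phagocytes of skeletal muscle. Resident cells lie in the connective tissue between fibres, where they clear debris and take up haemoglobin, glycoproteins and iron, and monocytes that enter from blood after injury become further macrophages, which first engulf dead fibres and later support repair. The receptor encoded by Csf1r carries a growth factor signal on which macrophages in general depend, whereas Cd163 and Mrc1 are used as markers of resident or repair-type cells.

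Total counts ranged from 36684220 to 46312167 per muscle, and expression is given as CPM, a gene's counts scaled to a common library size after normalisation. Vdr, the targeted gene, had a median of 3.93 CPM in VDR-OE control and 2298.9 CPM in VDR-OE muscles and was higher in the right leg of 6 of 7 rats. In rat 419 it stood at 5.75 CPM in the left and 5.45 CPM in the right leg, so that this right leg did not match its label. In the muscles labelled VDR-KD, Vdr had a median of 2.59 CPM against 3.41 CPM in VDR-KD control and was lower in 4 and higher in 3 of 7 rats (log2 fold change -0.26, adjusted p = 0.839, edgeR quasi-likelihood test). No direction below can thus be read as an effect of less Vdr. None of the muscle fibre, endothelial or neutrophil genes listed for comparison had a symbol in the supplementary file, so that the tissue label was not checked against muscle genes.

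The sequences just upstream of the start sites, here called promoters, are shown first. Their part in the expression of these genes was not tested. RefSeq (assembly GRCr8) held 7 of the 9 genes, Aif1 and C1qc being absent from the table. The 250 bases before the start site are printed 5′ to 3′ on the strand of the gene for 2 general and all 3 resident-type markers. Capitals mark the letters GAGGAA and AGGAAG on either strand, which hold the core bound by ETS factors, the family of the myeloid regulator PU.1. The 2 motifs can overlap each other.
C1qb, chr5:154407828-154408077, minus strand: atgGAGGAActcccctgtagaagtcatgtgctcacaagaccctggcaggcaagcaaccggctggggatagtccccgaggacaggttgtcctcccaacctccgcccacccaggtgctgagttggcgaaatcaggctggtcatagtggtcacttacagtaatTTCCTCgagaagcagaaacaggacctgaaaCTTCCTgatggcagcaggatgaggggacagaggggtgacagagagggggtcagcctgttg
Lyz2, chr7:54798012-54798261, minus strand: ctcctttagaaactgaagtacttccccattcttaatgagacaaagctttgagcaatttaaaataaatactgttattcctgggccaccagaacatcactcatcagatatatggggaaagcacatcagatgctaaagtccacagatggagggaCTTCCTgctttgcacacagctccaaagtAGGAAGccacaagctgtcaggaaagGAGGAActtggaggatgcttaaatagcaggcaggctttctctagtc
Cd163, chr4:158770524-158770773, plus strand: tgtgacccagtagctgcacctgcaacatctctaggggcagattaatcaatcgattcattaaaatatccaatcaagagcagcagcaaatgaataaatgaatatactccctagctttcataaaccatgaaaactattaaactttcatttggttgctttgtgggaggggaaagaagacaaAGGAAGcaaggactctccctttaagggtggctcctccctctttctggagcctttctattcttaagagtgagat
Mrc1, chr17:82157475-82157724, plus strand: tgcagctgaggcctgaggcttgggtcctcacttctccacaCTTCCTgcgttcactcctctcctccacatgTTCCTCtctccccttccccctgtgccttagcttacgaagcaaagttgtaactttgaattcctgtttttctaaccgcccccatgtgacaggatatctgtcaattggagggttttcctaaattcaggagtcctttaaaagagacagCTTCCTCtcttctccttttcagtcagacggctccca
F13a1, chr17:28020947-28021196, plus strand: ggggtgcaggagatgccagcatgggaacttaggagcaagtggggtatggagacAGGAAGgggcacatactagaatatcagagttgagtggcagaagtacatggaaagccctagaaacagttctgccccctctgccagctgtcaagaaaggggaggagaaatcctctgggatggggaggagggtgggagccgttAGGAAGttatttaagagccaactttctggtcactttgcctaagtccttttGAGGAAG

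AGGAAG was found upstream of 7 of the 7 genes with a sequence and GAGGAA upstream of 6, Cd163 being the exception. Among all 33469 RefSeq promoters of the same length, 29.5% held AGGAAG and 23.3% GAGGAA on either strand. In the Lyz2 promoter GAGGAA began at position -46 from the start site, and in that of F13a1 at -7. The nuclear receptor half-site AGGTCA (14.1% of all promoters), a direct repeat of it with a gap of 3 bases, the form bound by VDR (0.0209%), and the C/EBP core TTGCGCAA (0.14%) were in none of the 7. A match describes letters in this window and is no measured binding site, and a missing match says only that these letters are not there.

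All 9 marker genes were higher in VDR-OE than in empty-vector muscles, by 2.02-fold (F13a1) to 2.81-fold (Lyz2). Of these, 4 passed the test, namely the resident-type markers Cd163 and Mrc1 and the general markers Cd14 and Csf1r, beside 7.14% of the 14526 genes tested (4.08% higher and 3.06% lower). In the other arm the 9 genes were higher on average in muscles labelled VDR-KD, by 1.18-fold to 1.64-fold, with none past the threshold and opposite directions among the rats. The lowest median of the 4 groups was that of the empty-vector muscles for each of the 9 genes. Because these are bulk samples, fewer macrophages and less RNA of each gene per macrophage cannot be told apart.

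**Figure D1:**
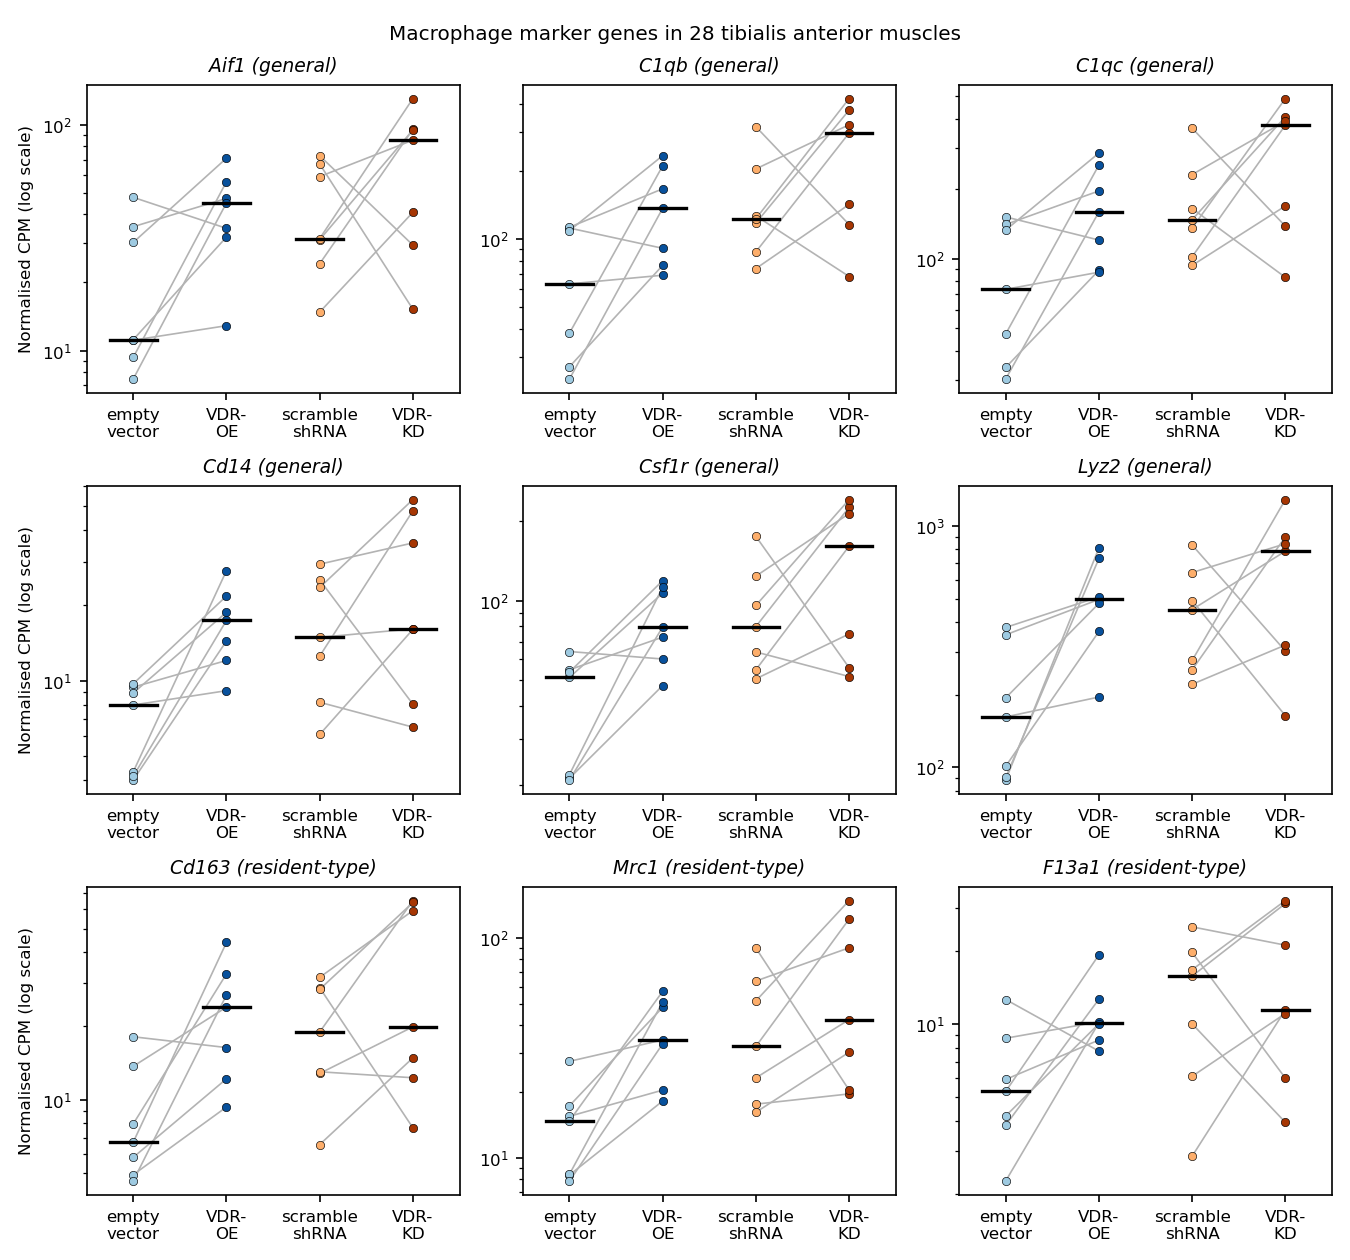
Normalised CPM (log axis) of each marker gene in the 28 muscles, with grey lines joining the left and right leg of a rat and black bars for group medians (n = 7 muscles a group). For each gene the empty-vector muscles hold the lowest median, and in the VDR-KD arm some lines rise while others fall.

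Among the general markers, Csf1r encodes the receptor through which macrophages receive their survival signal. Csf1r stood at 21.0, 51.3 and 64.3 CPM (lowest, median and highest muscle) in VDR-OE control and at 47.8, 79.6 and 119 CPM in VDR-OE. In VDR-KD control it ran from 50.7 over a median of 79.9 to 175 CPM, and in VDR-KD from 51.7 over 161 to 242 CPM. All 4 groups overlapped, with 5 of the 7 VDR-OE muscles above the highest empty-vector muscle. The log2 fold change in VDR-OE was 1.14 (SE 0.27, adjusted p = 0.0408, edgeR quasi-likelihood test over 7 rats). The right leg was higher in 6 of 7 rats, the exception being rat 416, whose right leg carried raised Vdr.

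Cd14 encodes the co-receptor that hands bacterial lipopolysaccharide to the Toll-like receptors. In VDR-OE control Cd14 ranged from 3.99 over a median of 7.98 to 9.71 CPM, while VDR-OE muscles ranged from 9.11 over 17.4 to 27.6 CPM. The groups overlapped in 1 muscle, since 6 of 7 VDR-OE muscles lay above every empty-vector muscle, and the right leg was higher in 7 of 7 rats (log2 fold change 1.34, SE 0.29, adjusted p = 0.0364). Scramble muscles spread from 6.08 over 14.9 to 29.3 CPM and VDR-KD muscles from 6.51 over 16.1 to 53.2 CPM, so that the latter reached higher but not lower.

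Lyz2, lysozyme, is a secreted antibacterial enzyme made in bulk by macrophages. Rat lysozyme genes have near-identical copies, and reads shared between them may have been assigned to either, so its values are less certain. Lyz2 counted 88.7, 162 and 380 CPM in VDR-OE control and 196, 496 and 811 CPM in VDR-OE, again as lowest, median and highest. It was higher in the right leg of 7 of 7 rats and had the largest log2 fold change of the 9 genes, 1.49, but also the largest error (SE 0.41), and it missed the threshold (adjusted p = 0.0564). In VDR-KD control it spanned 221 to 834 CPM with a median of 451 and in VDR-KD 164 to 1286.5 CPM with a median of 786.

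C1qb and C1qc encode 2 of the chains of complement C1q, which tags debris for uptake. In VDR-OE control C1qb ran from 23.9 over 63.2 to 113 CPM, while VDR-OE muscles ran from 69.1 over 137 to 235 CPM. For C1qc the same groups ran from 30.2 over 73.6 to 151 CPM and from 87.3 over 159 to 285 CPM. In VDR-KD muscles their medians of 297 and 376 CPM stood above the scramble medians of 123 and 147 CPM, although rats 423 and 425 went the other way. With 6 of 7 right legs higher in VDR-OE for each gene, neither passed the test (C1qb 1.14, SE 0.36, adjusted p = 0.0758, and C1qc 1.10, SE 0.34, adjusted p = 0.0750). For both genes the exception was rat 416, whose right leg carried raised Vdr.

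Aif1 encodes a calcium-binding protein of the macrophage cytoskeleton, known from tissue sections as Iba1. Aif1 stood at 7.48, 11.2 and 47.6 CPM in VDR-OE control and at 12.9, 45.0 and 71.0 CPM in VDR-OE. The distance between these medians was wide, yet the highest empty-vector muscle, the left leg of rat 416, exceeded 5 of the 7 VDR-OE muscles. The log2 fold change of 1.15 had an SE of 0.38 (adjusted p = 0.0855). Scramble muscles ran from 14.8 over 31.3 to 72.8 CPM and VDR-KD muscles from 15.2 over 85.4 to 130 CPM.

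Of the resident-type markers, Mrc1 encodes the mannose receptor, which removes glycoproteins and collagen fragments. Mrc1 ranged from 7.84 over a median of 14.7 to 27.5 CPM in VDR-OE control and from 18.1 over 34.3 to 57.2 CPM in VDR-OE. Its right legs were higher in 7 of 7 rats, and it had the smallest p-value of the 9 genes (log2 fold change 1.43, SE 0.28, adjusted p = 0.0282). In the other arm it ran from 16.1 over 32.1 to 89.8 CPM in scramble and from 19.5 over 42.5 to 148 CPM in VDR-KD muscles, with 6 of 7 right legs higher.

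Cd163 encodes the receptor that takes up haemoglobin bound to haptoglobin. Cd163 had 4.65, 6.70 and 18.1 CPM as lowest, median and highest value in VDR-OE control, and 9.33, 23.9 and 43.9 CPM in VDR-OE. It was higher in 6 of 7 right legs, the exception being rat 419, whose right leg did not carry raised Vdr (log2 fold change 1.42, SE 0.34, adjusted p = 0.0428). Scramble and VDR-KD muscles had close medians, 18.9 and 19.8 CPM, while 3 VDR-KD muscles, those of rats 424, 426 and 428, lay above the whole scramble range of 6.55 to 31.6 CPM.

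F13a1 encodes the A chain of coagulation factor XIII, which cross-links fibrin. F13a1 had the lowest, median and highest values 2.27, 5.29 and 12.6 CPM in VDR-OE control and 7.75, 10.2 and 19.3 CPM in VDR-OE (log2 fold change 1.02, SE 0.34, adjusted p = 0.0866). In VDR-KD control it ran from 2.87 over 15.8 to 25.1 CPM and in VDR-KD from 3.95 over 11.5 to 32.3 CPM. It was the only member whose median was lower in VDR-KD than in scramble muscles, and it was lower in the right leg of 3 of those 7 rats.

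As a set, 2 of the 3 resident-type and 2 of the 6 general markers passed the test in VDR-OE, with median log2 fold changes of 1.42 and 1.15 against -0.0034 over all genes tested. At an unadjusted p under 0.05 all 9 passed, beside 18.2% of all genes in the same direction. All 9 came from the 1998 genes ranked first by p-value in the study's own test of this contrast, so passing was favoured beforehand. The share over all genes is therefore no like background for them. The count of calls changed with single rats, while the fold changes moved less. Leaving out rat 419, the rat without raised Vdr, the log2 fold changes of the 9 genes were larger, for example 1.68 for Cd163 (adjusted p = 0.0457) and 1.62 for Mrc1 (adjusted p = 0.0456). In that fit 3 members were called beside 209 of 14395 genes, Csf1r dropping out (adjusted p = 0.0609). Without rat 416 there were 8 members called beside 4768 of 14363 genes. Without any one of rats 417, 418, 420, 421 or 422 there were 0. In those 5 fits the genes called among all genes fell as well, to 149, 1, 4, 0 and 416 in that order of rats. The log2 fold change of Mrc1 lay between 1.23 and 1.62 with any one rat left out, that of Cd163 between 1.20 and 1.68, that of Cd14 between 1.12 and 1.53 and that of Csf1r between 0.94 and 1.34. Other fits moved the count both ways. The likelihood ratio test and DESeq2 each called 9 members, beside 2262 and 2752 of 14526 genes. The quasi-likelihood fit of all 28 muscles called 0 members beside 229 of 15112 genes, with adjusted p-values of 0.0753 for Mrc1, 0.0831 for Cd14, 0.0831 for Cd163 and 0.104 for Csf1r.

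**Figure D2:**
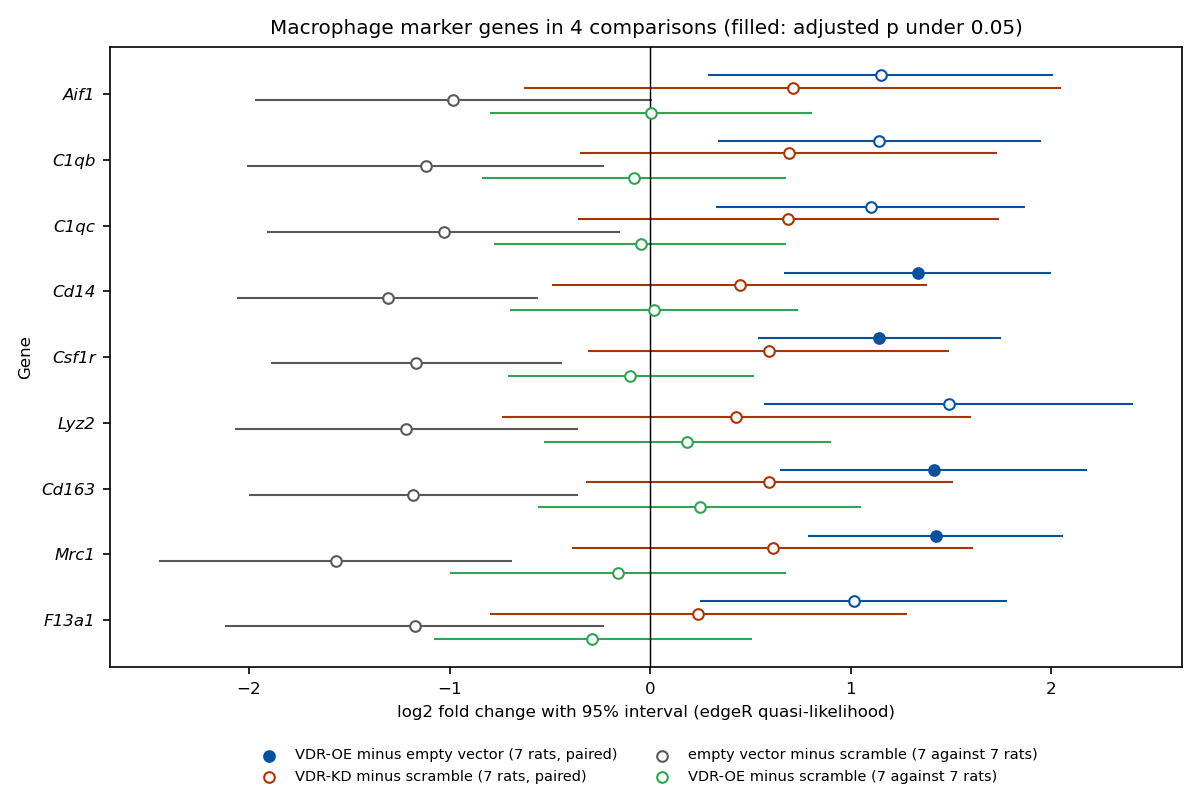
Log2 fold change (edgeR quasi-likelihood fit) of the 9 marker genes in 4 comparisons, with lines for 95% intervals and filled points for an adjusted p under 0.05. The VDR-OE points lie between 1.02 and 1.49, the empty-vector minus scramble points between -1.57 and -0.98, and the VDR-OE minus scramble points lie around 0.

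Within rats, the 2 kinds of marker did not always move as one. The mean log2 ratio of right to left leg over the resident-type markers exceeded that over the general markers in 2 of 7 rats in each arm. In rat 416 the ratio was 1.16 for resident-type and -0.06 for general markers, and in rat 418 it was 1.90 and 0.69. In rats 421 and 422, which had the largest rises, general markers moved slightly more (2.62 against 2.39, and 2.42 against 1.95). Over the 7 rats of the VDR-OE arm the difference of resident-type minus general had a median of -0.32, between -0.64 and 1.22, so the 2 groups of markers differed by less than the spread between rats. Rat 419 had -0.18 and 0.24, the smallest rise of general markers after rat 416.

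In order of Vdr in the right leg, from rat 419 (5.45 CPM) over rats 418 (201 CPM), 416 (1986.4 CPM), 420 (2298.9 CPM), 421 (2747.2 CPM) and 417 (3684.7 CPM) to rat 422 (5938.3 CPM), the ratio of right to left leg for Cd163 was 0.903, 4.10, 1.89, 1.74, 6.54, 2.09 and 5.74. For Mrc1 the ratios in the same order were 1.25, 3.88, 1.32, 2.80, 6.07, 2.17 and 4.20. Rat 419, with the lowest Vdr, had the lowest ratio of both genes, and the other rats did not rise step by step. It also had the lowest ratio of Cd14, Lyz2 and F13a1. For Aif1, C1qb, C1qc and Csf1r the lowest ratio was that of rat 416 (0.729, 0.813, 0.795 and 0.937). Rat 419 stood at 1.159, 1.093, 1.185 and 1.329 for these genes. A relation with the level of Vdr was not tested.

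**Figure D3:**
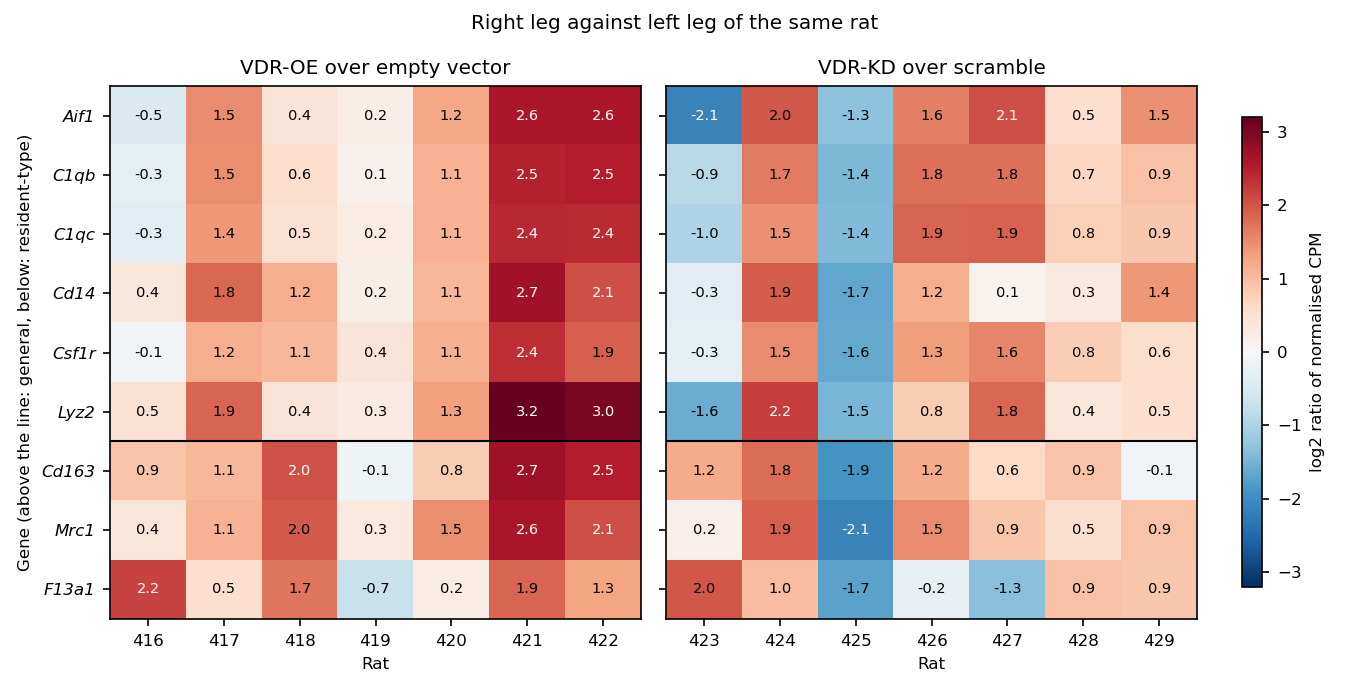
Log2 ratio of normalised CPM, right over left leg, for each marker gene (rows, general markers above the black line) in each rat (columns), red where the right leg was higher. In the VDR-OE arm rats 421 and 422 carry the strongest red, and in the VDR-KD arm rat 425 is blue in every row while rat 423 is blue for general and red for resident-type markers.

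In the VDR-KD arm the log2 fold changes ran from 0.24 (F13a1) to 0.71 (Aif1), with standard errors of 0.39 to 0.59 and adjusted p-values of 0.803 to 0.869. The edgeR quasi-likelihood test called 0 of the 9 members and 0% of 14652 genes, with 0 members and 395 genes at an unadjusted p under 0.05, and the likelihood ratio test and DESeq2 also called 0. The 95% intervals were wide, for Mrc1 from -0.39 to 1.61 and for F13a1 from -0.80 to 1.28, so that the value measured in VDR-OE was within the interval for each of the 9 genes. Rats disagreed in direction. Rat 424 was higher in the right leg for 9 of 9 members, rat 425 lower for 9 of 9, and rat 423 lower for 6 of 9.

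Rat 423 showed the clearest parting of the 2 kinds of marker, with a mean log2 ratio of 1.11 for resident-type and -1.04 for general markers. Its Aif1 fell from 66.9 CPM in the left to 15.2 CPM in the right leg, while F13a1 stood at 2.87 and 11.5 CPM. Rat 427 was the opposite, with 0.06 and 1.53. In that rat Aif1 stood at 31.3 CPM in the left and 130 CPM in the right leg and F13a1 at 10.04 and 3.95 CPM.

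The question whether the 2 arms differed was asked directly, as the VDR-OE effect minus the VDR-KD effect over all 28 muscles. The 9 differences lay between 0.42 (C1qc) and 1.06 (Lyz2) on the log2 scale, and the test called 0 of 9 members and 0% of 15112 genes. At an unadjusted p under 0.05 it held 0 members and 1099 genes, while the likelihood ratio test called 18 genes and DESeq2 44, with 0 members in each. For Cd14 the difference was 0.89 with a 95% interval from -0.25 to 2.03, and for Aif1 0.45 with an interval from -1.13 to 2.02. A difference between overexpression and the muscles labelled VDR-KD was thus not detectable for any of the 9 genes with these rats.

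The control legs of the 2 arms, which are different rats, were also compared with each other. All 9 genes were lower on average in empty-vector than in scramble muscles, by -0.98 (Aif1) to -1.57 (Mrc1) on the log2 scale, with a median of -1.17 against 0.0094 over all genes. The 2 groups overlapped for each gene. The quasi-likelihood test called 0 of the 9 at the adjusted threshold, with adjusted p-values from 0.0903 to 0.218, beside 0.0277% of 14458 genes. At an unadjusted p under 0.05 it held 8 of 9, all but Aif1, beside 23.3% of genes in either direction. In the direction of the members, lower with empty vector, these were 1836 of 14458 genes. The likelihood ratio test called 3 members beside 441 genes, and DESeq2 5 members beside 1035 genes. The loss of rat 429 from the scramble group brought 3 members past the threshold, beside 788 genes. This contrast shares the empty-vector muscles with the VDR-OE comparison, and a low level in those 7 muscles enters both with opposite sign. The selection by p-value in VDR-OE therefore favoured the members here too, and the share over all genes is no like background.

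Set against scramble rather than against their own left legs, the VDR-OE muscles gave fold changes near 0, in a comparison added after the data were seen. The log2 values lay between -0.29 (F13a1) and 0.25 (Cd163), with adjusted p-values of 0.962 to 0.9999, and 0 members and 0.00685% of 14609 genes were called. For Csf1r, the most precisely measured, the interval ran from -0.71 to 0.52. Medians of VDR-OE and scramble muscles were close for Mrc1 (34.3 and 32.1 CPM) and Csf1r (79.6 and 79.9 CPM). VDR-KD muscles were higher than VDR-OE muscles on average for each of the 9 genes, by 0.36 (Lyz2) to 0.84 (Mrc1), also in an added comparison, again with 0 members called (adjusted p from 0.405 to 0.677) beside 0.00681% of 14674 genes. No member passed an unadjusted p of 0.05 in either, and other tools were not run on them.

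In the order of medians, empty-vector muscles came first (lowest) for 9 of 9 genes and VDR-KD muscles last for 6. The exceptions were Cd14 and Cd163, with the highest median in VDR-OE, and F13a1, with the highest in scramble muscles. No neighbouring groups in that order were free of overlap for any gene. The left legs of rats 417, 421 and 422 were among the 7 lowest of the 28 muscles for all 9 genes. The right legs of rats 424, 426 and 428 and the left leg of rat 425 were among the 7 highest for all 9.

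Ratios between genes within one muscle separated the markers further, since library depth cancels in them. C1qb over C1qc was nearly fixed, from 0.741 to 0.918 over 28 muscles, a span of 1.24-fold. Lyz2 over Aif1 spanned 2.52-fold, from 6.45 to 16.3, and C1qc over Aif1 2.76-fold, from 2.46 to 6.78. The remaining ratios to Aif1 that were computed spanned more, from 5.91-fold for Csf1r and 6.23-fold for Cd14 among the general markers to 10.2-fold for the resident-type marker Mrc1. Cd163 over Aif1 went from 0.0979 in the left leg of rat 423 to 1.63 in the left leg of rat 419, or 16.6-fold. F13a1 over Aif1 spanned 37.6-fold, from 0.0303 in the right leg of rat 427 to 1.14 in the left leg of rat 419. The spans did not simply follow the 2 kinds of marker, since Mrc1 over Csf1r spanned 2.55-fold and Cd163 over Mrc1 2.69-fold, while Cd163 over F13a1, both resident-type, spanned 5.47-fold. The low ends of Cd163 and F13a1 over Aif1 were shared by the left legs of rats 416 and 423, both controls, and the right leg of rat 427.

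**Figure D4:**
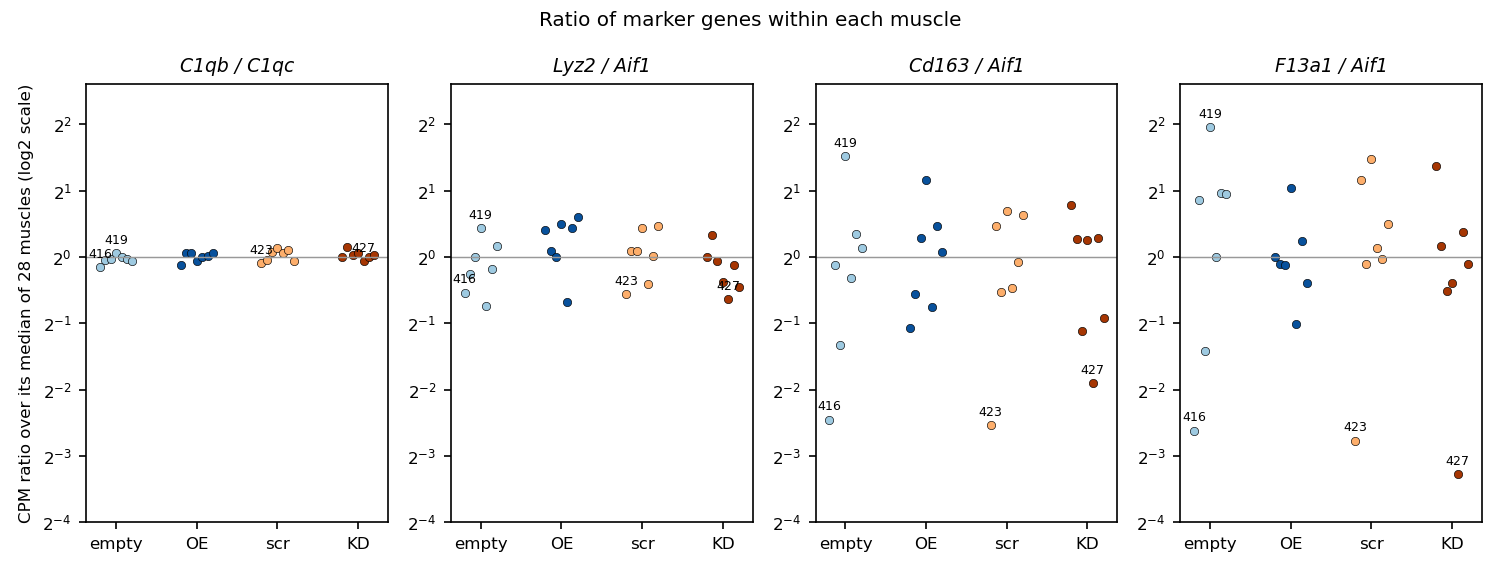
Ratio of CPM of 2 marker genes in each muscle, divided by the median ratio of the 28 muscles (log2 axis), by group (empty: VDR-OE control, OE: VDR-OE, scr: VDR-KD control, KD: VDR-KD), with rat numbers at 4 muscles. C1qb over C1qc stays within a span of 1.24-fold, whereas F13a1 over Aif1 spreads over 37.6-fold, with the left legs of rats 416 and 423 and the right leg of rat 427 lowest.

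Within groups, the correlation of log2 CPM centred on group means described the same grading, over 28 muscles that share both legs of a rat and are given without a p. Pearson's r was 1.0 for C1qb with C1qc, 0.94 for C1qb with Csf1r and 0.93 for Csf1r with Mrc1. For Mrc1 with Cd163 it was 0.90 and for Cd163 with F13a1 0.81. It was 0.22 for Lyz2 with F13a1 and 0.04 for Aif1 with F13a1. Mrc1 stood between these ends, with 0.59 to Aif1 and 0.68 to F13a1.

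Among 1930 named genes that passed the filter over 28 muscles, the 8 with the highest median r with the 9 members were Naaa (median r 0.924), Itgad (0.921), Cmtm7 (0.909), Lfng (0.908), Gm2a (0.906), Acpp (0.906), Gmfg (0.905) and Rab32 (0.900). They were not like every member, since their lowest r with a single member lay between 0.141 (Gm2a) and 0.33 (Itgad). Naaa, which encodes a lysosomal amidase, had 9.77 ± 4.40 CPM (SD, n = 7) in VDR-OE control, 17.3 ± 4.08 CPM in VDR-OE, 17.7 ± 7.61 CPM in VDR-KD control and 27.5 ± 13.3 CPM in VDR-KD. Itgad, an integrin chain of leukocytes, had 13.2 ± 8.12, 26.6 ± 10.7, 30.7 ± 18.7 and 50.8 ± 30.4 CPM in the same order. In both, the mean was lowest with empty vector and highest in VDR-KD muscles, as it was for each of the 9 members.

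Other genes of macrophages were read from lists of which only part had a symbol, by the same selection as the members, so that their counts in VDR-OE were favoured in the same way. This holds for each list below. Beside their calls stand 4.08% of all genes tested that were called higher in VDR-OE, which is no like background for them. Of 22 further macrophage and monocyte genes 9 were named, and 9 of 9 were higher in VDR-OE, with 3 called (Fcgr2b, Mertk and Trem2) and a median log2 fold change of 1.15. Trem2, a lipid receptor of phagocytes, rose by 1.22 (SE 0.17, adjusted p = 0.0163), Fcgr2b, an inhibitory receptor for antibodies, by 1.44 (SE 0.33, adjusted p = 0.0382), and Mertk, a receptor for the uptake of dying cells, by 1.01 (SE 0.24, adjusted p = 0.0435). Gpnmb (1.31, adjusted p = 0.0687), Laptm5 (1.04, adjusted p = 0.0689) and Irf8 (1.15, adjusted p = 0.0762) missed the threshold. In the VDR-KD arm 9 of 9 were higher as well, with a median of 0.68 and 0 called. At an unadjusted p under 0.05 there was 1, beside 0.696% of all genes higher. In empty-vector against scramble muscles the 9 genes were lower by a median of -1.12, with 0 called. At an unadjusted p under 0.05 there were 8, beside 1836 lower among 14458 genes, and the selection favoured them here too.

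Of 10 further resident-type genes 4 were named and 3 tested in VDR-OE, and 1 was called. This was Stab1, a scavenger receptor, with a log2 fold change of 0.72 (SE 0.12, adjusted p = 0.0200, higher in 7 of 7 right legs). Folr2, a folate receptor of resident macrophages, was at 1.29 (SE 0.34, adjusted p = 0.0512) and Igf1, a growth factor also made by fibres, at 0.67 (SE 0.18, adjusted p = 0.0519), while Cd209f passed the filter only in the VDR-KD arm. In that arm the 4 genes had a median of 0.31, with 0 called by the quasi-likelihood test and 0 at an unadjusted p under 0.05.

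Genes for signals that act on macrophages were fewer, 4 of 8 with a symbol and 3 tested. Il34, a ligand of the receptor encoded by Csf1r, rose by 0.40 in VDR-OE (SE 0.10, adjusted p = 0.0476), with 6 of 7 right legs higher. The other ligand of that receptor, Csf1, was at 0.65 (SE 0.18, adjusted p = 0.0583) and Tgfb1 at 0.62 (SE 0.17, adjusted p = 0.0609). Csf2 did not pass the filter in either arm. In the VDR-KD arm 2 of the 3 tested genes were higher and 1 lower, with a median of 0.34 and 0 called.

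Genes listed for other cells moved beside the members. Of 10 genes of antigen presentation and dendritic cells 7 were named, with 7 of 7 higher and 1 called in VDR-OE, the dendritic cell gene Clec9a (0.99, SE 0.25, adjusted p = 0.0470), and a median of 1.16. Cd74, the invariant chain of class II molecules, was at 1.09 (SE 0.30, adjusted p = 0.0559) and the class II gene RT1-Da at 1.23 (SE 0.33, adjusted p = 0.0537). In the VDR-KD arm 7 of 7 were higher as well, with a median of 0.72 and 0 called. The summed CPM of these 7 genes spanned 653 to 2419.5 with empty vector and 1447 to 3474.4 in VDR-OE, 1427 to 4862.4 with scramble and 852 to 7035.4 in VDR-KD muscles. Of 10 genes listed for T and B cells 3 were named, with Cd4 called (1.15, SE 0.28, adjusted p = 0.0463) and Cd3d (1.27, adjusted p = 0.126) and Cd2 (0.998, adjusted p = 0.0868) not. Cd4 had the highest mean of the 3 in each group, in VDR-OE control 29.9 CPM beside 3.01 CPM for Cd3d and 5.05 CPM for Cd2. Whether the Cd4 reads came from lymphocytes was not tested. In the VDR-KD arm the 3 genes were higher too, with a median of 0.57 and 0 called. Summed, these 3 genes spanned 15.1 to 64.0 CPM with empty vector and 47.9 to 99.8 CPM in VDR-OE, then 40.5 to 157 CPM with scramble and 37.9 to 179 CPM in VDR-KD. None of these named markers was at 0 throughout a group, and the part of other leukocytes in the values of the members was not tested.

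Fibroblast genes were listed as well. Of 8 listed 7 were named, and 7 of 7 were called in VDR-OE with a median of 0.84, beside 4.08% of all genes called higher. These 7 too came from the genes ranked first by p-value in this contrast, so being called was favoured beforehand. Col1a1 (0.84, SE 0.15, adjusted p = 0.0224) and Col3a1 (0.84, SE 0.16, adjusted p = 0.0271), which encode fibrillar collagens, and Dcn (0.64, SE 0.12, adjusted p = 0.0269) and Dpt (0.70, SE 0.10, adjusted p = 0.0173) of the matrix were each higher in 7 of 7 right legs. In the VDR-KD arm the median of these 7 genes was 0.09, beside 0.59 for the 9 macrophage markers, and 0 of either were called. The difference between the arms had a median of 0.75 over these 7 genes, with 0 called. At an unadjusted p under 0.05 there were 6, beside 3.37% of all genes higher. The VDR-OE effect is part of this difference, so the selection by its p-value favoured these genes here as well. In these 7 genes empty-vector muscles were lower than scramble muscles too, by a median of -0.75 with 0 called. The summed CPM of the 7 genes spanned 1607 to 5325.3 with empty vector and 2306 to 8703.5 in VDR-OE, against 2946 to 8873 with scramble and 2689 to 8911.9 in VDR-KD.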

How the data were processed

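RNA was taken from 28 tibialis anterior muscles, both legs of 14 rats. The authors made paired reads of 75 bp, removed adaptors (trimmomatic) and reads without a mate, mapped and counted the rest with Rsubread, and deposited raw counts per gene, without normalisation, for the rat genome (version 6, Ensembl release 89). Their processing notes also name bcl2fastq 2.17.1.14, FastQC 0.11.5 and edgeR 3.18.1. A supplementary file that holds the authors' own fold changes and p-values was used only to pair symbols with identifiers.

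Muscles were grouped by VDR status and paired by animal. A gene entered a test when its CPM lay above the value of 10 counts (0.239 CPM in the VDR-OE and 0.251 CPM in the VDR-KD arm) in at least 7 muscles, and all 9 members passed in each comparison. Each arm was fitted with edgeR 4.0.16 in R 4.3.3 (trimmed mean of M-values, rat as a block, quasi-likelihood test, Benjamini-Hochberg adjustment over all genes tested, threshold 0.05). The study's methods point to the likelihood ratio test, which made too many false calls on simulated data and became an alternative, as did DESeq2 1.42.0, other size factors and filters, no block, a fit of all 28 muscles, and leaving out each rat. The difference between arms used all 28 muscles and the control legs were compared without a block. VDR-OE against scramble and VDR-KD against VDR-OE were added after the data were seen. Standard errors are the fold change over the root of F. Single-gene log2 CPM used a prior count of 0.5.

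Legs of the same rat pair by their animal identifier. Their deviations from group means correlated by 0.243 on average (lowest -0.19) in the VDR-OE arm, against -0.041 between different rats, and by -0.105 (lowest -0.548) in the VDR-KD arm, against 0.018. Muscles of a group differed by more than sampling noise (chi-square of at least 30.2 for each degree of freedom), and each counted as a sample.

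The genes named are the 9 members, Vdr, from each other list up to 4 matched genes with the highest mean CPM, and the 8 named genes with the highest median correlation with the members. Fcgr2b, Mertk, Trem2 and Clec9a fell outside this rule and were named after their values were seen, because they were the calls of their lists. One gene that the rule names is not reported here. The members and the lists were chosen with earlier results of these data known. Promoters came from RefSeq, and their coordinates (GRCr8) are of another build than the counts.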

Additional observations from a re-analysis of the deposited data

Results flagged for a closer look

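In VDR-OE muscles the highest F13a1 value, 19.3 CPM in the right leg of rat 421, stood far from the other 6 muscles, which lay between 7.75 and 12.7 CPM. The gap to the next muscle took 0.573 of the range of the group. This was 1 of 36 combinations of gene and group examined, and chance alone sets apart about 1 in 20 such groups. The same muscle had the highest Cd163 (43.9 CPM), Cd14 (27.6 CPM) and Lyz2 (811 CPM) of its group.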

How the results depend on the processing

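Against 1037 genes called in VDR-OE, the likelihood ratio test called 2262, DESeq2 2752 and a fit of all 28 muscles 229, and leaving out a rat gave between 0 (rat 421) and 4768 (rat 416). Without the replicate block, which here pairs the legs of a rat, 887 were called and the members called were again 4, with Lyz2 (adjusted p = 0.0468) in and Csf1r (adjusted p = 0.0501) out. In the VDR-KD arm the count was 0 under each alternative. For the difference between arms (0 genes) it was 18 by the likelihood ratio test, 44 by DESeq2, 1 without a filter, 1 with the filter in at least 2 muscles, 11 without the replicate block and 0 to 1 with a rat left out. For empty vector minus scramble (4 genes) it was 441 by the likelihood ratio test, 1035 by DESeq2, 12 with other size factors, 7 without a filter, 12 with the filter in at least 2 muscles, 132 in the fit of all 28 muscles and 0 to 788 with a rat left out, the highest without rat 429 and 102 without rat 423. The causes of these shifts were not tested.

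Of 126 values of the members in the VDR-OE comparison, 85 kept their side of the threshold, 26 lost it, 15 gained it and 0 changed direction. In the VDR-KD arm 125 of 126 kept it, and F13a1, between -0.056 and 0.56 with a rat left out, turned to -0.056 without rat 423. All 180 kept it for the difference between arms, and 169 of 180 for the control legs, with 11 gained. With 7 rats an arm the standard errors of the members (0.27 to 0.59 within an arm) set what could be detected, since the lowest count of a member in any muscle was 113. The cell types, protein and histology behind these RNA levels were not analysed here.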
